A study of Mus musculus with 2 samples.

Results

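The 10 genes Klra4, Klra7, Klra8, Klra9, Klrb1c, Klrc1, Klrd1, Klre1, Klri2 and Klrk1 encode lectin-like receptors of natural killer (NK) cells. They were taken by gene symbol from the 32286 features of each matrix, which held 16 other Klr genes. The data are single-cell RNA libraries of lungs from BALB/c mice that had received 4T1 cells, a mouse mammary carcinoma line, in the mammary fat pad. One library came from mice treated with the S100A4-11 antibody and 1 from mice treated with IgG antibody, both collected on day 14 after inoculation. With 1 library per group, a difference between libraries had no replicate check, and the number of mice behind each library, their age and the dose are not given in the sources used here. Intervals in parentheses are exact 95% counting intervals. They cover counting error only and treat UMIs (unique molecular identifiers, 1 per captured transcript) as independent, so they are too narrow for a gene whose UMIs sit in few cells.

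NK cells kill infected or transformed cells without prior sensitisation, and a balance of inhibitory and activating receptors sets that response. In mice most of these receptors are C-type lectin-like proteins encoded side by side in the NK gene complex. The Ly49 receptors (Klra genes) read MHC class I molecules directly, CD94 (Klrd1) pairs with NKG2A (Klrc1) to read a nonclassical class I molecule, and NKG2D (Klrk1) binds stress-induced ligands. Ly49 genes are known to be switched on in only some NK cells, in combinations that differ from cell to cell, and their number and sequence differ between mouse strains.

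Matched to GENCODE M21 (build GRCm38) by gene ID, all 10 genes lie on chromosome 6 from 128778485 to 130233322, a span of 1455 kb. The minus strand carries 8 of them, and the plus strand Klre1 and Klrd1. From low to high coordinate the order was Klrb1c, Klre1, Klrd1, Klrk1, Klrc1, Klri2, Klra4, Klra8, Klra9 and Klra7. The 4 Klra members fill 189.6 kb, from 130043731 to 130233322. The first 60 coding bases of these 4 genes and of Klra3, the Klra gene with the most UMIs here, are shown because the 5′ chemistry reads this end of the transcript and because the genes differ there by only a few bases. They are from GENCODE M21 transcripts on the minus strand of chromosome 6, numbered from 1 at the A of the start codon, and capitals mark bases that differ from Klra3.
Klra3: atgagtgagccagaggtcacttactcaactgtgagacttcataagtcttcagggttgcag
Klra9: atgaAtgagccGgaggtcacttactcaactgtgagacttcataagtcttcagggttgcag
Klra7: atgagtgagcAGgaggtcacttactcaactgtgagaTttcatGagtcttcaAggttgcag
Klra4: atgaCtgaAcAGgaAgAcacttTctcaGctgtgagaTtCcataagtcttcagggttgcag
Klra8: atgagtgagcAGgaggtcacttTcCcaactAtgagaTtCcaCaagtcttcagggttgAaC
Klra9 differed from Klra3 at 2 of these 60 bases (G5A and A12G), Klra7 at 5, and Klra4 and Klra8 at 10 each. Klra4 and Klra8, which encode the activating receptors Ly49D and Ly49H, shared the changes A23T and T39C, which Klra9 and Klra7, which encode the inhibitory receptors Ly49I and Ly49G2, did not have. Over the whole coding sequence Klra9 was 95.9% identical to Klra3, Klra8 was 91.9% identical to Klra9, and Klra4 was 88.9% identical to Klra1 and 84.8% identical to Klra7.

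These likenesses bear on what the counts can say, since the build the authors used is that of the C57BL/6J strain and the mice were BALB/c. In the first 500 transcript bases, 48.3% of 50-base windows of Klra8 occurred in no other annotated gene, and 44.1% were shared with the pseudogene Klra14-ps. The unshared part was 70.2% for Klrb1c and 87.4% for both Klra9 and Klrc1, with Klrc2 sharing 11.1% of the Klrc1 windows. It was 99.8% for Klra4, 98.8% for Klra7 and 100% for Klrd1, Klre1, Klri2 and Klrk1. As background, BALB/c mice carry fewer Ly49 genes than C57BL/6 mice and lack Ly49D and Ly49H, so UMIs counted as Klra4 need not come from a Klra4 gene. Which BALB/c gene gave them was not tested. The NK1.1 antibody, which recognises the Klrb1c product of C57BL/6 mice, is known not to stain BALB/c NK cells, although transcripts were counted here.

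After filtering and removal of doublets, 11750 cells of the S100A4-11 library and 13658 cells of the IgG library remained. One cluster carried all 9 NK markers used for naming (Ncr1, Gzma, Prf1, Eomes, Txk, Samd3, Adamts14, Il2rb and Nkg7), none of them a Klr gene, and Klr genes were kept out of the clustering. It held 568 cells (4.83% of kept cells) in the S100A4-11 library and 429 cells (3.14%) in the IgG library, called NK cell-like below. Their summed UMIs were 1645117 and 1352993, and the median cell had 2588 UMIs in the S100A4-11 library and 2890 UMIs in the IgG library. Of 16 markers of other immune cells, 15 had a UMI in S100A4-11 NK cell-like cells and 12 in IgG ones, with summed levels of 604 and 849 CPM (UMIs per 1000000 UMIs of the class). Cd4 was at 0 in both, and Cd3e was found in 0.352% of S100A4-11 cells and in none of the IgG cells. Other T cell and innate lymphoid markers were found in more cells. Trbc1 was in 23.1% of S100A4-11 and 23.5% of IgG cells, Trbc2 in 11.3% and 14.7%, Trdc in 19.9% and 22.6%, and Rora in 30.1% and 27.5%. At least 1 of 9 T cell markers was found in 35.6% of S100A4-11 and 37.3% of IgG cells. Lyz2 and S100a8, markers of myeloid cells, were found in 8.98% and 18.7% of S100A4-11 NK cell-like cells, against 24.0% and 28.7% of IgG ones. The libraries shared 247 cell barcodes among kept cells.

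Most of the RNA of these receptors was in NK cell-like cells, at nearly the same level in both libraries. The 10 genes summed to 2828 CPM (4652 UMIs) in S100A4-11 NK cell-like cells and 3019 CPM (4084 UMIs) in IgG ones, a ratio of 0.937 (0.898 to 0.977), which was 1.09 when cells were chosen by Ncr1 without Cd3 genes in place of clusters. At least 1 of the 10 was found in 97.9% of S100A4-11 cells and 98.8% of IgG cells. Over all kept cells the sum was 93.4 CPM in the S100A4-11 library and 65.2 CPM in the IgG library, a ratio of 1.43 (1.38 to 1.49), beside the larger share of NK cell-like cells in that library. Klrc1 alone was past 1.5-fold there (1.52, 1.41 to 1.65), where 2.88% of all genes were higher. Each UMI stands for 1 transcript read at its 5′ end, so levels of different genes count molecules and do not scale with transcript length.

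Klrc1, which encodes the inhibitory receptor NKG2A, had the highest level of the 10, at 768 CPM in S100A4-11 and 740 CPM in IgG NK cell-like cells (ratio 1.04, 0.955 to 1.13). Its partner Klrd1 followed in the S100A4-11 library with 512 CPM, against 518 CPM in the IgG library (0.989, 0.894 to 1.10). Klre1, known in rodents as the partner of the KLRI receptors, had 477 and 523 CPM (0.912, 0.823 to 1.01), so that Klrd1 and Klre1 were neighbours whose order changed between libraries within their intervals. The activating receptor gene Klrk1 had 396 CPM in the S100A4-11 library and 413 CPM in the IgG library (0.959, 0.855 to 1.08). Klrb1c, of the NKR-P1 family, had 173 and 181 CPM (0.957, 0.804 to 1.14). None of these 5 ratios had an interval that excluded 1.

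Klri2, which encodes an activating member of the KLRI pair, stood at 281 CPM in S100A4-11 NK cell-like cells and 370 CPM in IgG ones, a ratio of 0.760 (0.668 to 0.864). It was found in 30.1% (26.4 to 34.1) of S100A4-11 cells and 36.4% (31.8 to 41.1) of IgG cells. Klra7 had 152 and 177 CPM (0.857, 0.715 to 1.03). Klra4 had 62.0 CPM (102 UMIs) in the S100A4-11 library and 93.1 CPM (126 UMIs) in the IgG library, a ratio of 0.666 (0.508 to 0.871). Those UMIs came from 21 S100A4-11 cells and 27 IgG cells, and the 5 cells with most of them held 55.9% and 34.9%. Without NK cell-like cells that had a UMI of Cd3d, Cd3e, Cd3g, Cd79a, Ms4a1, Lyz2 or S100a8 the Klra4 ratio was 0.926. That setting kept 402 of 568 S100A4-11 cells and 229 of 429 IgG cells. Without the 5 cells of each library with the most UMIs of the 10 genes the Klra4 ratio was 0.465. The Klra4 ratio therefore depended on which cells were counted.

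Klra9 had 8 UMIs in S100A4-11 and 4 UMIs in IgG NK cell-like cells, each in a cell of its own, or 4.86 and 2.96 CPM (ratio 1.64, 0.441 to 7.46). Klra8 had 1 UMI in 568 S100A4-11 cells and 0 UMIs in 429 IgG cells (exact upper bound 0.856% of cells), both at or under a floor of 3 counts, and no ratio is given. Outside NK cell-like cells, alveolar macrophage-like cells held 3 of the 13 Klra9 UMIs of the S100A4-11 library and 4 of the 8 of the IgG library. The Klra9 and Klra8 counts were too low to compare libraries.

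Of the 10 genes, 8 reached the 20 UMIs over both libraries needed to read a ratio. A gene was read as past the fold when its ratio was at least 1.5 in either direction with an interval excluding 1. None of the 8 was higher past that fold in the S100A4-11 library and 1 was lower (Klra4). Among all 8867 genes with at least 20 UMIs in NK cell-like cells, 1.64% were higher and 4.13% lower, 5.76% in all. The median ratio was 0.934 over the 8 genes and 0.988 over all of these genes, with 7 of the 8 under 1. That tally depends on the settings, since Klrd1 was at 1.025 with TMM scaling, Klrd1 at 1.11, Klrk1 at 1.065, Klrb1c at 1.04 and Klre1 at 1.01 with each library clustered alone, and Klrd1 at 1.18, Klrk1 and Klrb1c at 1.13 and Klre1 at 1.06 with the marker gate. Klri2 was the only other of the 8 whose interval excluded 1.

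**Figure D1:**
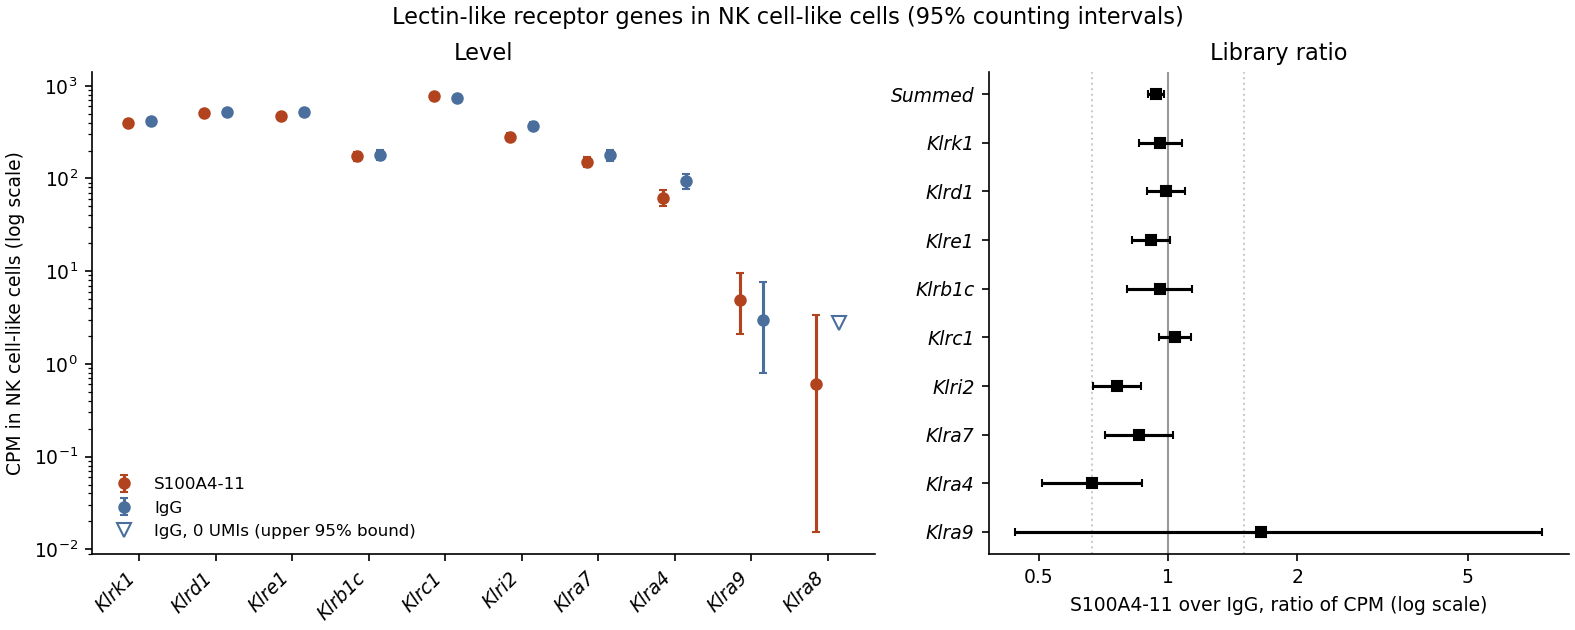
Levels of the 10 receptor genes in NK cell-like cells of the S100A4-11 and IgG libraries in CPM on a log axis (left), and the S100A4-11 over IgG ratio on a log axis (right), with exact 95% counting intervals and dotted lines at 1.5-fold either way. Levels run from 768 and 740 CPM for Klrc1 to 1 and 0 UMIs for Klra8, where an open triangle marks the upper bound. The ratios of Klri2 (0.760) and Klra4 (0.666) have intervals below 1, and that of Klra9 (1.64) has the widest interval.

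The receptors fell into 2 kinds by how their RNA was spread over cells. For each gene the share of cells with a UMI was set beside the share that the same level would give if it were spread evenly over cells of these depths. Klrd1, Klre1, Klrk1 and Klrb1c were close to an even spread. Klrd1 was found in 70.4% of S100A4-11 cells (73.1% if even) and 71.6% of IgG cells (75.9% if even). Klre1 was found in 67.8% and 73.7%, Klrk1 in 62.0% and 65.7%, and Klrb1c in 37.9% and 39.2% of cells, at 0.939 to 0.997 times their even shares in the 2 libraries.

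Klrc1, Klri2, Klra7 and Klra4 were in far fewer cells than their levels would reach. Klrc1 was found in 59.0% of S100A4-11 cells (84.8% if even) and 60.4% of IgG cells (85.6% if even). Klri2 was found in 30.1% (53.0% if even) and 36.4% (65.0% if even). Klra7 was found in 15.7% (34.4% if even) of S100A4-11 cells and 19.3% (41.1% if even) of IgG cells. Klra4, in 3.70% (16.1% if even) and 6.29% (24.8% if even) of cells, was the patchiest of the 10. The observed shares were 0.696 and 0.705 times the even share for Klrc1, 0.568 and 0.559 for Klri2, 0.456 and 0.471 for Klra7, and 0.229 and 0.254 for Klra4.

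**Figure D2:**
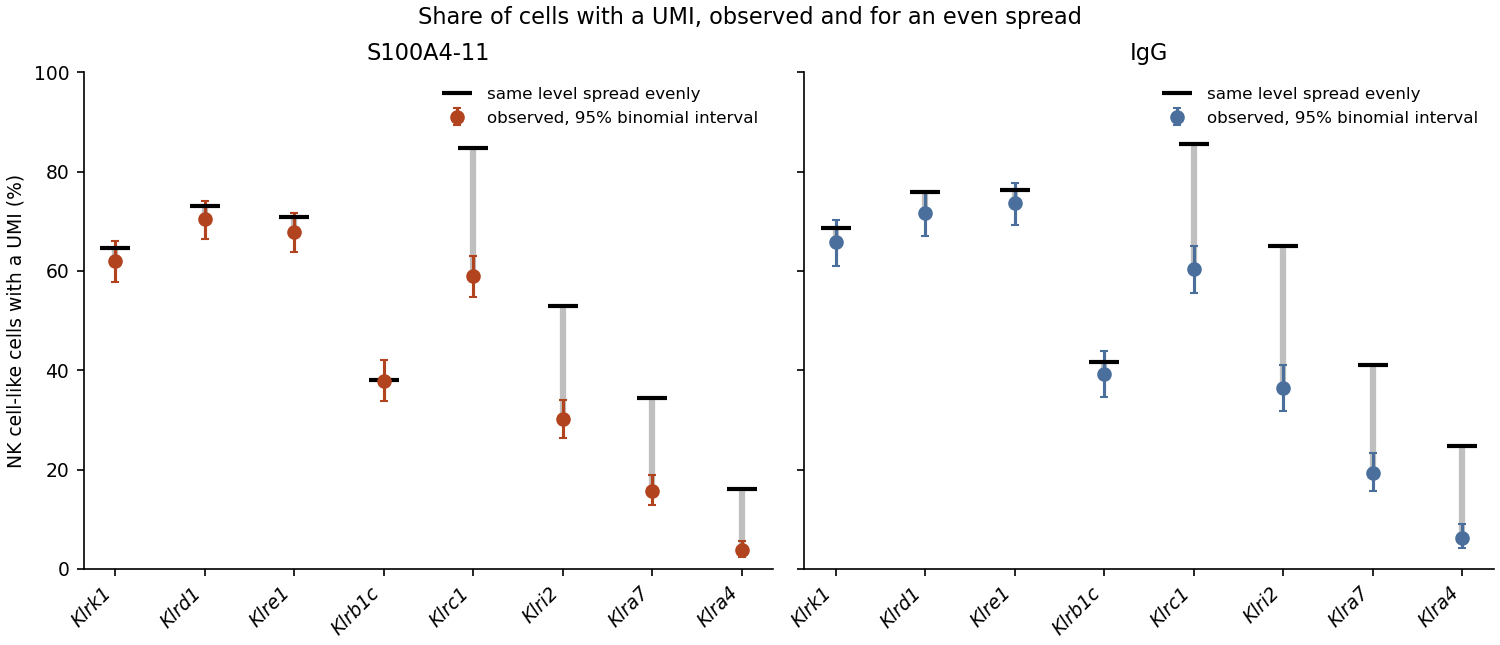
Percent of NK cell-like cells with a UMI of each gene (points, with exact 95% binomial intervals) and the percent that the same level would give if spread evenly (black bars), in the S100A4-11 library (left) and the IgG library (right). The 4 genes at the left of each panel sit close to their bars, and Klrc1, Klri2, Klra7 and Klra4 sit well below them in both libraries.

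Among 2283 genes with at least 100 UMIs in NK cell-like cells of each library, the median of this quotient was 0.974 in the S100A4-11 library and 0.969 in the IgG library. It was under 0.7 in both libraries for 25 genes (1.1%), and 3 of the 8 measurable receptors were among them: Klra4, Klra7 and Klri2, with Klrc1 just outside at 0.705 in the IgG library. Ordered from the lowest quotient, Klra4 ranked 2nd, Klra7 7th, Klri2 11th and Klrc1 27th, and Klra3, which is not one of the 10, 21st. Cd74, a marker of antigen-presenting cells, ranked lowest of all, and genes near these receptors, chosen after their values were seen, included the early response genes Fos, Jun and Atf3 and the cytokine genes Ifng and Xcl1. The threshold of 0.7 was set after the values were seen.

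The same quotient can be written as UMIs per positive cell. A positive S100A4-11 cell held on average 4.86 UMIs of Klra4, 3.77 of Klrc1, 2.81 of Klra7 and 2.70 of Klri2, against 1.11, 2.63, 1.28 and 1.53 under an even spread. In IgG cells these means were 4.67, 3.86, 2.89 and 3.21. For Klrb1c a positive cell held 1.33 UMIs in the S100A4-11 library and 1.46 in the IgG library, and most held exactly 1 (74.4% and 66.7%). Klra4 reached 20 UMIs in 1 S100A4-11 cell and Klri2 reached 25 in 1 IgG cell. From 5 to 9 UMIs of Klrc1 were found in 18.0% of S100A4-11 cells and 15.6% of IgG cells, and 10 or more in 1.41% and 2.80%, while 41.0% and 39.6% had none.

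**Figure D3:**
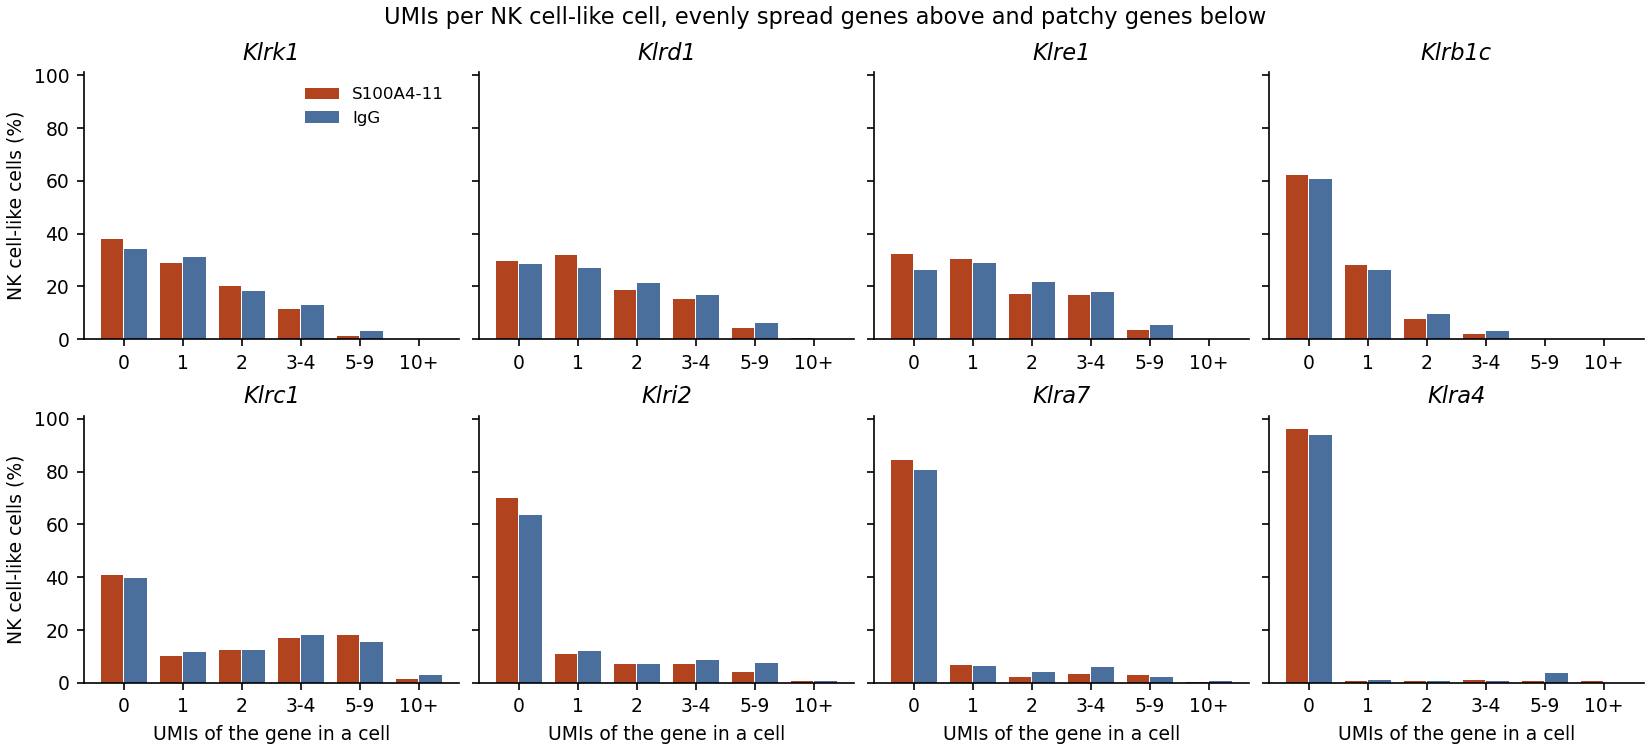
Percent of NK cell-like cells (vertical axis) with 0, 1, 2, 3 to 4, 5 to 9 and 10 or more UMIs of a gene (horizontal axis, bins of unequal width), S100A4-11 beside IgG. For Klrk1, Klrd1, Klre1 and Klrb1c in the upper row the bars fall off beyond 1 UMI, while Klrc1 in the lower row has its other cells spread over 1 to 9 UMIs (the last 3 bins hold several values each), and Klri2, Klra7 and Klra4 have most cells at 0.

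With each cell thinned to 1000 UMIs, which left out 18 S100A4-11 and 10 IgG cells, Klrc1 had the highest share, with intervals that overlapped those of Klre1 and Klrd1. Klrc1 was then in 43.1% (38.9 to 47.3) of S100A4-11 cells and 42.2% (37.5 to 47.1) of IgG cells, Klre1 in 41.3% and 39.1%, Klrd1 in 39.8% and 38.4%, and Klrk1 in 36.4% and 32.0%. Klri2 was in 17.6% (14.5 to 21.1) and 22.0% (18.1 to 26.2) of cells, Klrb1c in 16.9% and 17.2%, Klra7 in 8.91% (6.66 to 11.6) and 13.4% (10.3 to 17.0), and Klra4 in 2.73% (1.53 to 4.46) and 5.01% (3.13 to 7.56). The binomial intervals of the 2 libraries overlapped for each of these 8 genes. Klra8 was found in none of 550 S100A4-11 and 419 IgG cells at this depth, with exact upper bounds of 0.668% and 0.877%.

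A median of 4 of the 10 genes was found per NK cell-like cell at full depth in both libraries, with a maximum of 7. None of the 10 was found in 12 S100A4-11 cells (2.11%) and 5 IgG cells (1.17%). At 1000 UMIs the median was 2 in both, and 9.27% of S100A4-11 cells and 9.07% of IgG cells had none. Depth thus set how many receptors could be seen in a cell.

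Pairing within cells was read in 2 ways, as the share of cells positive for both genes and as the level of 1 gene in cells with and without another. A pair was read as shared or avoiding when, in both libraries, the intervals of the second gene's share in cells with and without the first did not overlap. At 1000 UMIs none of the 45 pairs met this. At full depth 2 pairs were shared (Klra7 with Klri2, and Klrd1 with Klre1) and 2 were avoiding (Klra7 with Klrc1, and Klrc1 with Klri2). No pair with Klra4 met the rule. Klri2 was found in 48.3% of S100A4-11 cells with Klra7 and 26.7% of those without, and in 51.8% and 32.7% of IgG cells. Klrc1 was found in 44.9% of S100A4-11 cells with Klra7 and 61.6% of those without, and in 41.0% and 65.0% of IgG cells. At full depth cells with a receptor were also deeper (median 2690 and 2459 UMIs for S100A4-11 cells with and without Klrc1), which raises shared detection of any 2 genes, so levels per UMI were compared next.

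Per UMI, Klrc1 stood on 1 side and Klri2, Klra7 and Klra4 together on the other, in both libraries. In cells with a Klrc1 UMI (335 S100A4-11 and 259 IgG cells), Klri2 had 214 CPM, against 384 CPM in S100A4-11 cells without one, a ratio of 0.559 (0.463 to 0.674). In IgG cells the values were 238 and 572 CPM (0.416, 0.346 to 0.4997). The Klra7 ratio was 0.543 (0.419 to 0.701) in S100A4-11 cells and 0.498 (0.382 to 0.647) in IgG cells, and the Klra4 ratio 0.599 (0.398 to 0.900) and 0.281 (0.187 to 0.416). Of the 8866 other genes compared, 0.282% were lower and 0.237% higher in cells with Klrc1 by intervals in both libraries. The 25 lower genes included 5 Klr genes, namely Klri2, Klra4, Klra7, Klra3 and Klra1, the last 2 encoding Ly49C and Ly49A.

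Seen from the other side, Klrc1 was lower in cells that had Klri2, Klra7 or Klra4. It had 496 CPM in S100A4-11 cells with Klri2 and 909 CPM in those without, and 500 and 896 CPM in IgG cells. Its ratio was 0.711 (0.604 to 0.833) and 0.523 (0.432 to 0.629) by Klra7, and 0.345 (0.213 to 0.530) and 0.329 (0.212 to 0.488) by Klra4. Lower genes made up 0.406%, 0.44% and 0.135% of all genes in the splits by Klri2, Klra7 and Klra4.

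Klri2, Klra7 and Klra4 were each higher where another of the 3 was present. Klra7 had 226 CPM in S100A4-11 cells with Klri2 and 114 CPM in those without, a ratio of 1.98 (1.53 to 2.55), and 240 and 137 CPM in IgG cells (1.75, 1.3503 to 2.28). Klra4 was 2.28-fold (1.51 to 3.43) and 3.30-fold (2.24 to 4.93) higher in cells with Klri2, and 2.53-fold (1.65 to 3.83) and 6.20-fold (4.26 to 9.14) higher in cells with Klra7. The background shares of higher genes were 0.643% for the split by Klri2, 0.406% by Klra7 and 0.485% by Klra4. Klra3, the most abundant Klra gene, did not go with this trio in both libraries. Its ratio was 1.17 and 0.989 by Klri2, 1.10 and 1.01 by Klra7, and 1.28 and 0.854 by Klra4. Klra1 was 11.2-fold higher in S100A4-11 cells with Klra4 and 4.81-fold higher in IgG ones. The coding sequence of Klra4 was 88.9% identical to that of Klra1 and 84.8% to that of Klra7. Whether reads of 1 BALB/c Ly49 gene were counted under several of these symbols was not tested, so that cannot be told apart from shared expression.

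The 4 evenly spread genes did not split along this line. Klrd1, the partner chain of Klrc1, had 504 CPM in S100A4-11 cells with Klrc1 and 526 CPM in those without (0.958, 0.833 to 1.10), and 501 and 546 CPM in IgG cells (0.917, 0.787 to 1.07). The ratio by Klrc1 was 0.982 and 0.933 for Klre1, 1.06 and 0.938 for Klrk1, and 0.916 and 1.18 for Klrb1c, each with an interval that included 1. Klri1, the inhibitory counterpart of Klri2, had a ratio of 1.60 (1.19 to 2.14) by Klri2 in S100A4-11 cells and 1.40 (0.995 to 1.95) in IgG cells. The ratio of Klre1 by Klri2 had intervals that included 1 (1.04, 0.892 to 1.20, and 1.05, 0.903 to 1.22). Klrc2, which encodes the activating receptor NKG2C, was 5.18-fold (2.90 to 10.1) and 5.56-fold (2.97 to 11.5) higher in cells with Klrc1. Reads from the 11.1% of 50-base Klrc1 windows that Klrc2 shares cannot be assigned to 1 of the 2 genes, and their part in this ratio was not tested.

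**Figure D4:**
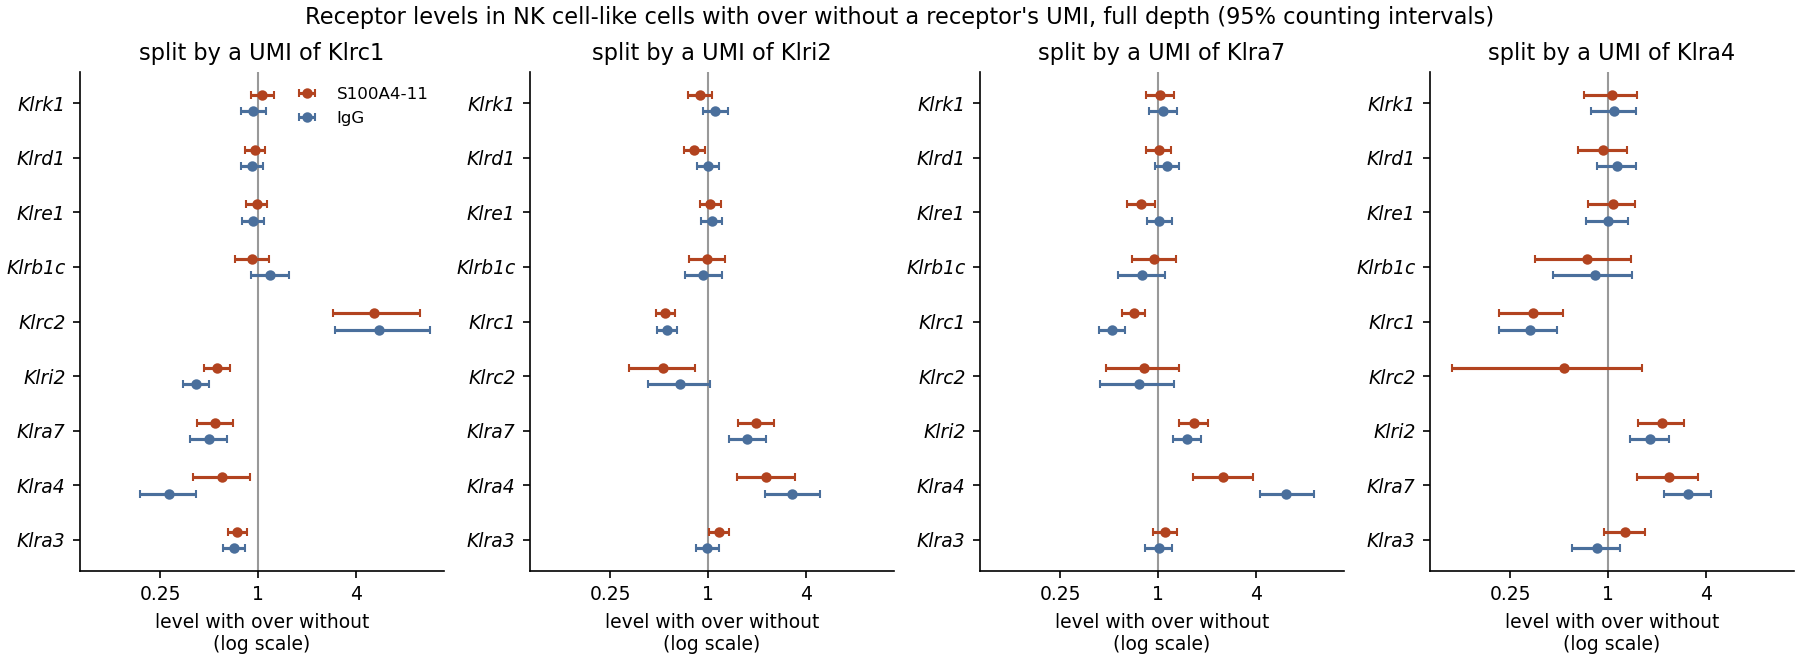
Level of each receptor gene in NK cell-like cells with a UMI of Klrc1, Klri2, Klra7 or Klra4 over its level in cells without one (horizontal log axis), at full depth, with exact 95% counting intervals for S100A4-11 (upper point) and IgG (lower point). Klri2, Klra7 and Klra4 lie below 1 in the split by Klrc1 and above 1 in the splits by each other, and Klrk1, Klrd1, Klre1 and Klrb1c lie near 1. Klrc2 had 0 UMIs in IgG cells with Klra4 and has no point there.

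Other genes moved with these full-depth splits too, by the same intervals in both libraries. In cells with Klrc1, the adaptor and signalling genes Pik3r1 (1.29 and 1.24), Lck (1.21 and 1.18), Sh2d2a (1.15 and 1.29) and Fcer1g (1.08 and 1.11) were higher, 4 of 22 on that list. Of 13 genes of the late NK cell maturity list, Ly6c2 (1.22 and 1.26) and Irf8 (1.07 and 1.15) were higher in cells with Klrc1. In cells with Klra7, S1pr5 (0.675 and 0.653), Cma1 (0.560 and 0.630) and Ccl5 (0.953 and 0.904) were lower, and in cells with Klri2 Zeb2 was lower (0.815 and 0.754). In cells with Klra4, Irf8 was lower (0.772 and 0.726), and of 13 early or tissue-resident genes Emb (4.58 and 4.28) and Ctla2a (2.62 and 1.48) were higher.

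Ribosomal protein genes, genes of dividing cells and markers of other cells moved with the splits as well, and their part in the receptor ratios was not tested. Of the 57 genes higher in cells with Klri2, 38 were ribosomal protein genes, as were 30 of the 43 higher in cells with Klra4. Genes of dividing cells were higher by Klri2 (Hist1h1b, 2.92 and 9.44) and by Klra7 (E2f1, 5.32 and 9.19, and Kif11, 12.8 and 5.74), while Top2a (0.216 and 0.193) was lower by Klrc1, as was Myc (0.376 and 0.281). Antigen-presenting and B cell genes were lower by Klra7, with Cd74 at 0.137 and 0.0421, H2-Aa at 0.0957 and 0.0205 and Cd79a at 0 and 0.0783. Myeloid genes were lower by Klrc1 (Il1b, 0.704 and 0.324) and by Klri2 (S100a9, 0.769 and 0.307). NK marker genes used for naming were lower by Klra7, among them Ncr1 (0.742 and 0.864) and Prf1 (0.771 and 0.888). The genes named in these sentences were chosen after their values were seen.

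With cells thinned to 1000 UMIs and then split, the receptor pattern was called in both libraries for the split by Klri2 and not for those by Klrc1 and Klra7. The splits by Klrc1 and Klra7 were planned, while that by Klri2 was chosen after the values were seen, so it is no independent check. By Klri2, Klra4 was 3.12-fold (1.37 to 6.84) and 2.97-fold (1.55 to 5.60) higher, Klra7 2.38-fold (1.44 to 3.86) and 2.37-fold (1.44 to 3.85) higher, and Klrc1 at 0.571 (0.411 to 0.776) and 0.435 (0.300 to 0.613) of its level in cells without Klri2. By Klrc1, none of the other 9 members was higher or lower by intervals in both libraries. Klri2 was at 0.803 (0.562 to 1.14) in S100A4-11 cells and 0.326 (0.209 to 0.491) in IgG cells, and Klra7 at 0.882 (0.546 to 1.41) and 0.433 (0.240 to 0.746). By Klra7, none of the 9 was called either, with Klri2 at 1.47 (0.846 to 2.43) and 1.96 (1.30 to 2.88) and Klrc1 at 0.982 (0.681 to 1.38) and 0.471 (0.294 to 0.719). Klra4 was at 0.0945 (0.0109 to 0.375) and 0.514 (0.241 to 1.02) by Klrc1, and at 1.58 (0.400 to 4.54) and 7.79 (4.12 to 14.87) by Klra7. For Klra4 by Klrc1 the S100A4-11 interval alone excluded 1, and for the other ratios of these 2 splits given here the IgG interval alone did.

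Klra8 had no positive cell after thinning, and Klra9 had 5 S100A4-11 cells and 1 IgG cell, too few to split on. Of the maturity lists, Ccl5 was called in the thinned split by Klri2 (1.07-fold and 1.11-fold higher), and of the adaptor list Lck in that by Klrc1 (1.27-fold and 1.36-fold). Of genes with at least 100 UMIs in NK cell-like cells of each library before thinning, the 3 with the highest thinned ratio by Klrc1 were Klrc2 (3.44 and 3.42), Exoc5 (2.29 and 2.05) and Rab5c (1.76 and 2.05), and the 3 lowest Cd74 (0.319 and 0.0613), Klra4 (0.0945 and 0.514) and Kat6a (0.512 and 0.538). By Klra7 the highest were Arfrp1 (3.30 and 3.52), Cnot2 (2.16 and 2.16) and Emc2 (1.86 and 2.16), and the lowest Trim26 (0 and 0.240), Cd74 (0.293 and 0.191) and Itgb7 (0.370 and 0.399). Of these, Klrc2, Rab5c and Cd74 by Klrc1 and Arfrp1 by Klra7 had intervals that excluded 1 in both libraries, and at full depth this held for Klrc2 and not for the other 3.

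The promoters of Klrk1, an evenly spread gene, and Klrc1, a patchy one, are shown as examples of the motifs searched. Sequences are from RefSeq on GRCm38.p6, where 8 of the 10 genes had entries of 300 bases. The 250 bases before the start are printed, on the minus strand, at chr6:129623865-129624114 for Klrk1 and chr6:129678974-129679223 for Klrc1. Capitals mark TGTGGT (the core of the RUNX motif) or TATAAA on either strand, and in Klrc1 a TATAAA and its reverse complement overlap.
Klrk1: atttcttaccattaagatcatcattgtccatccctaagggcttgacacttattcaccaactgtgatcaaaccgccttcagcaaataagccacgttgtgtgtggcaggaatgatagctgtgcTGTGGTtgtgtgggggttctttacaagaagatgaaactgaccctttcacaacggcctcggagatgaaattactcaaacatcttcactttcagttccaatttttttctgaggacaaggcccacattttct
Klrc1: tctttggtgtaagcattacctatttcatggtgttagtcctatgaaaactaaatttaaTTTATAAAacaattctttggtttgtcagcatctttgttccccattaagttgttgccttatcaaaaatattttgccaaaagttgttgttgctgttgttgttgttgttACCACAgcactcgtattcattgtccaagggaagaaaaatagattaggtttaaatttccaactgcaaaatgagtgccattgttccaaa
The 8 genes had 11 entries, since some had 2. TGTGGT was found in 4 of the 11 entries (of Klrb1c, Klrc1, Klre1 and Klrk1) and in 16.8% of all 32851 promoters. TATAAA was found in 5 of the 11 (of Klra7, Klra8, Klra9 and Klrc1) and in 13.6% of all promoters. The 2 Klra8 entries overlap and hold the same match, so the 5 are not separate promoters. GGTGTGA, a T-box motif, and CAGGAAGT, an ETS motif, were found in none of the 11 and in 3.98% and 3.33% of all promoters. A match is a run of letters and not a binding site.

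Outside NK cell-like cells the receptors had little RNA, and each in its own places. NK cell-like cells held 94.4% of Klra4 UMIs in the S100A4-11 library and 98.4% in the IgG library, 93.6% and 95.2% of Klra7, 91.3% and 89.8% of Klri2, 90.9% and 88.7% of Klre1, and 90.9% and 81.8% of Klrc1. Klrb1c (85.6% and 77.5%), Klrk1 (76.1% and 70.4%) and Klrd1 (72.7% and 65.6%) were the least confined. The B cell-like class should lack these receptors, but it does not give the most that free RNA can reach. Its summed receptor level was the lowest of the named classes compared, at 0.984 on the log2 scale. That level was 3.53 in fibroblast-like, 3.44 in type 2 alveolar epithelial-like and 3.16 in endothelial-like cells. The part of free RNA in those levels was not tested. Klrd1 was found in 0 of 1341 S100A4-11 B cell-like cells (exact upper bound 0.275%) and in 0.348% of 861 IgG ones, at median depths of 2812 and 2875 UMIs.

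T cell-like cells had Klrd1 but almost none of the other 9 genes. Klrd1 stood at 52.5 CPM in S100A4-11 and 58.7 CPM in IgG T cell-like cells, in 15.7% and 15.5% of them at median depths of 3990 and 4002 UMIs. Among T cell-like cells with a UMI of Cd8a or Cd8b1 and none of Cd4, Klrd1 was found in 42.6% (35.4 to 50.1) of 183 S100A4-11 cells and 38.6% (31.1 to 46.4) of 166 IgG cells. In those with Cd4 and no Cd8 UMI it was found in 3.61% (1.46 to 7.29) of 194 and 7.04% (3.90 to 11.5) of 199 cells. Klrk1 was in only 1.64% and 4.82% of the Cd8 cells. Klrc1, whose product pairs with CD94, was found in 3 of 183 S100A4-11 and 1 of 166 IgG cells.

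An unnamed cluster led by Ccr8, Cxcr6, Il2ra and Il1rl1, with 356 S100A4-11 and 343 IgG cells and markers of both T cells and innate lymphoid cells, held Klrc1 at 31.9 and 61.7 CPM, Klrk1 at 31.9 and 40.9 CPM and Klrd1 at 30.7 and 37.5 CPM. The Klrc1 ratio there was 0.517 (0.362 to 0.731), from 4.21% and 6.41% of cells. Interstitial macrophage-like cells held Klrd1 at 26.8 CPM in the S100A4-11 library and 20.01 CPM in the IgG library, in 14.98% and 10.3% of cells, at median depths of 8554 and 9185 UMIs. Alveolar macrophage-like cells of like depth (8155 and 8343 UMIs) had Klrd1 in 1.41% and 0.404% of cells. Klrk1 stood at 26.3 and 12.8 CPM in the interstitial class. Nonclassical monocyte-like cells held Klrk1 at 10.3 and 16.0 CPM, in 3.78% and 6.78% of cells. Klrb1c was found in 3.61% and 3.10% of alveolar macrophage-like cells. The part of free RNA in these shares was not tested.

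**Figure D5:**
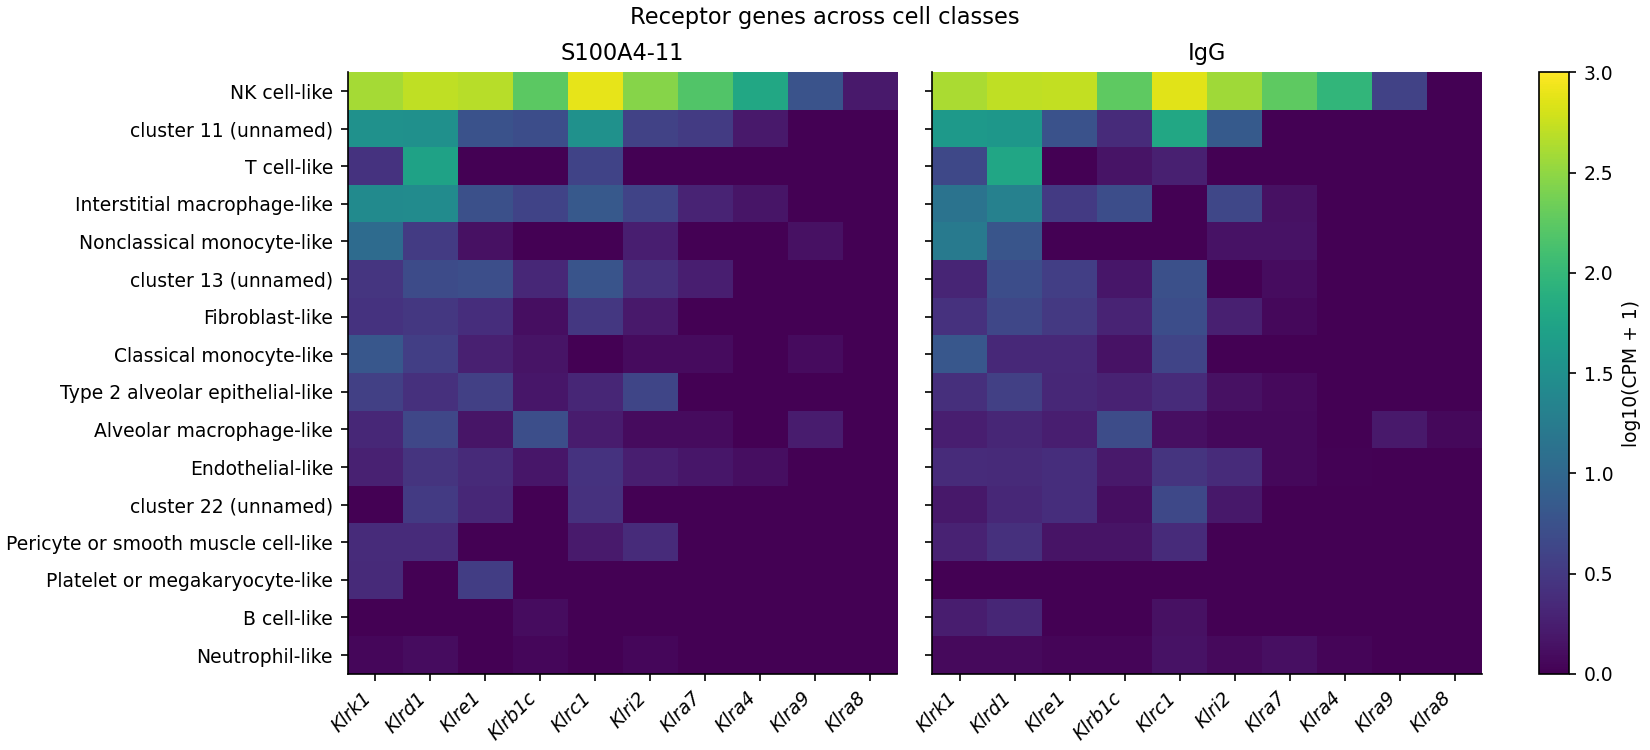
Level of the 10 genes (columns) in each cell class or unnamed cluster with at least 100 cells per library (rows, ordered by summed level), as log10(CPM + 1), S100A4-11 left and IgG right. All genes but Klra8 are brightest in NK cell-like cells, with Klrd1 alone bright in T cell-like cells and Klrc1, Klrd1 and Klrk1 together in cluster 11.

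Across the 13 named classes with at least 100 cells in each library, the 5 genes whose log2 levels went most with the summed receptors were Nkg7 (Pearson r = 0.953), Cst7 (0.951), Eomes (0.942), Tigit (0.936) and Xcl1 (0.931). Nkg7 and Eomes were markers that named the class, and 1 class decides these values, since the sum was 11.5 on the log2 scale in NK cell-like cells and at most 5.94 elsewhere.

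The other lectin-like receptors of NK cell-like cells were read from a list of 20 genes, of which 16 were in the matrices and 10 had at least 20 UMIs. Klra3, which encodes Ly49C, was as abundant as Klrd1, at 517 CPM in S100A4-11 cells and 462 CPM in IgG cells (1.12, 1.01 to 1.24), and was patchy, in 47.9% and 45.2% of cells (0.652 and 0.625 of the even share). Klrb1a had 362 and 436 CPM (0.829, 0.739 to 0.931), and Klrg1, a marker of mature NK cells, 342 and 419 CPM (0.817, 0.725 to 0.919). Klrb1f had 148 and 133 CPM, Klri1 117 and 109 CPM, Klrc2 71.1 and 77.6 CPM, Klrb1b 55.9 and 49.5 CPM, Klra1 20.7 and 24.4 CPM, and Klrc3 16.4 and 14.8 CPM. One of the 10 was past the fold, Klra5 at 9.12 and 24.4 CPM, lower at 0.374 (0.189 to 0.708), where 4.13% of all genes were lower. Klra5 rested on 15 and 33 UMIs.

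Of 22 listed genes for adaptors and signalling of the receptors, 21 had at least 20 UMIs and none was past the fold in either direction. Smaller differences were seen, among them Hcst and Ptpn6, whose intervals lay above 1. Tyrobp, which encodes the adaptor DAP12 of activating Ly49 receptors, had 1361 CPM in S100A4-11 cells and 1438 CPM in IgG cells (0.946, 0.890 to 1.01). Hcst, which encodes the NKG2D adaptor DAP10, had 509 and 415 CPM (1.23, 1.10 to 1.37). Fcer1g had 1787 and 1679 CPM, Pik3r1 683 and 698 CPM and Sh2d2a 736 and 760 CPM. Ptpn6, which encodes the phosphatase SHP-1 that inhibitory receptors recruit, had 105 and 74.6 CPM (1.40, 1.09 to 1.81).

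Ligands of the receptors were read over all kept cells, where 14 of 20 listed genes had at least 20 UMIs. One was past the fold higher (2.88% of all 19288 genes read) and 2 were lower (7.81%). Clec2i, a ligand of an NKR-P1 receptor, had 12.2 CPM in the S100A4-11 library and 6.65 CPM in the IgG library (1.83, 1.63 to 2.05). Within classes the Clec2i ratio was 1.18 (0.948 to 1.47) in B cell-like cells, its largest source, 1.46 (1.01 to 2.11) in T cell-like cells and 2.79 (1.4985 to 5.41) in interstitial macrophage-like cells. Cdh1, which encodes the Klrg1 ligand E-cadherin, had 11.1 and 18.6 CPM (0.598, 0.545 to 0.657), and within type 2 alveolar epithelial-like cells 162 and 157 CPM (1.03, 0.899 to 1.18). Cdh2 had 2.43 and 5.25 CPM (0.463, 0.380 to 0.561), and within pericyte or smooth muscle cell-like cells 55.7 and 62.2 CPM (0.894, 0.693 to 1.14). The NKG2D ligand gene Raet1e had 28.9 and 20.8 CPM over all cells and 101 and 97.6 CPM in NK cell-like cells themselves. Raet1a, Raet1b, Raet1c and H60a were listed but not in the matrices. Whether reads of the 3 Raet1 genes were counted as Raet1e was not tested. H2-T23, whose product Qa-1 is read by CD94 with NKG2A, had 327 and 357 CPM (0.916, 0.899 to 0.933). The class I genes H2-K1 (1510 and 1570 CPM), H2-D1 (2321 and 2434 CPM) and B2m (1069 and 1169 CPM), and Clec2d (413 and 385 CPM), were within 1.5-fold over all cells. Within classes B2m was at 0.633 (0.592 to 0.676) in pericyte or smooth muscle cell-like cells and 0.635 (0.579 to 0.695) in type 2 alveolar epithelial-like cells, and H2-D1 and H2-K1 were at 0.715 and 0.739 in the pericyte class. BALB/c mice carry other class I alleles than the build, which limits these counts too. Cdh1, Raet1e and H2-T23 were named after their values were seen.

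The maturity and activating receptor lists put these receptors in context. Of 12 early or tissue-resident genes with at least 20 UMIs, 2 were past the fold higher, Ltb at 118 and 72.4 CPM (1.63, 1.27 to 2.10) and Xcl1 at 153 and 102 CPM (1.502, 1.22 to 1.86), and none lower, against 1.64% and 4.13% of all genes read in NK cell-like cells, beside Ctla2a at 278 and 329 CPM and Thy1 at 70.5 and 76.9 CPM. Of 12 late genes none was past the fold, with Klf2 at 2238 and 2154 CPM, Irf8 at 3292 and 3177 CPM, Ccl5 at 26795 and 26230 CPM, Gzmb at 2170 and 2393 CPM and Cma1 at 350.1 and 430.2 CPM. Of 15 receptors other than lectin-like ones, Tigit, an inhibitory receptor on the same list, was past the fold lower at 96.0 and 161 CPM (0.596, 0.483 to 0.735), 1 of 15 where 4.13% of all genes were lower. The activating receptor gene Ncr1 had 1184 CPM in S100A4-11 cells and 1169 CPM in IgG cells (1.01, 0.947 to 1.08). The cytokine receptor genes had 1706 and 1617 CPM for Il2rb, 1661 and 1809 CPM for Ifngr1, 751 and 806 CPM for Il12rb2 and 480 and 550 CPM for Il18rap.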

How the data were processed

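The deposited matrices hold raw UMI counts per gene and cell barcode, made by the authors with Cell Ranger 7.1.0 on mm10, per the submitters' processing notes. Barcodes with at least 200 genes and at most 15% mitochondrial UMIs were kept, and Scrublet doublets (4.97% in S100A4-11, 4.39% in IgG) were removed. The libraries, 12506 and 14411 barcodes with 64695542 and 85458143 UMIs, were clustered together in Scanpy 1.11.5 (2000 variable genes, 30 components, 15 neighbours, Leiden resolution 1) without integration. Clusters were named from markers in at least 25% of cells at 2-fold or more. Free RNA was not corrected. UMIs were summed per class and library, and exact intervals came from SciPy 1.17.1. With 1 library per group no test was run. For shares, cells were thinned to 1000 UMIs. Named are the 10 genes, other Klr genes with at least 20 UMIs, the top 4 by UMIs and the 2 most different genes per list, the 5 most alike across classes, and the 3 highest and lowest genes by Klrc1, Klra7, Klra8 and Klra9. Members and lists were chosen with earlier results of these data known. Splits by Klri2 and Klra4, full-depth splits, and the removal of cells with other cells' markers were chosen after seeing the data. Coding sequences (GENCODE M21) were aligned in Biopython 1.88 in place of proteins. The code was tested on simulated data. TMM (edgeR 4.0.16) served only as an alternative.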

Additional observations from a re-analysis of the deposited data

How the results depend on the processing

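The summed ratio of 0.937 became 0.983 with every barcode kept, 0.983 with doublets kept, 1.01 at Leiden resolution 0.5, 1.04 with each library clustered alone and 1.09 with a marker gate, so its side of 1 depends on how NK cell-like cells are chosen. The 511 genes past 1.5-fold became 782, 790, 891, 1182 and 1657 under those same settings, and 146 with at least 100 UMIs per gene. Without thinning, 2 pairs were read as shared and 2 as avoiding; at 2000 UMIs 1 was avoiding. Over 14 settings the Klri2 ratio was 0.733 to 0.845 and the Klra4 ratio 0.465 to 0.926, past 1.5-fold in 4 of them. Of 125 ratios of single genes, 114 stayed within the interval of the reported one. That count holds Klra9, with a very wide interval, and settings that changed few cells or only the scaling, so it is no measure of robustness. The cause of the shifts was not tested. TMM scaling moved every ratio by 0.05 and median-of-ratios scaling by 0.06 on the log2 scale. No paired analysis was possible because each group has 1 library. Klra8 and Klra9 had too few UMIs for a comparison.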
